A study of Mus musculus with 4 samples.

Results

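The transcripts of 54 DNA repair genes were compared between mouse leukemic cells labelled Tet2 knockout (KO) and cells labelled wild type (WT), out of 24497 rows of the deposited table that are not spike-ins. The genes were taken by symbol: the Fanc, Rad5, Xrcc and Ercc families, mismatch repair genes of the Msh and Mlh families, and Brca1, Brca2, Atm, Atr, Parp1, Parp2, Lig1, Lig3 and Lig4. The rule reads symbols, not expression values. Each group had 2 libraries.

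Both groups were acute myeloid leukemia cells named NRAS/AE9a, made from bone marrow hematopoietic stem cells and grown in RPMI medium with the cytokines SCF (50 ng/ml), IL-3 and IL-6 (10 ng/ml), and with the drugs G418 (1 mg/ml) and puromycin (2 µg/ml). AE9a is a shortened form of the AML1-ETO fusion, and NRAS is a RAS oncogene, so both groups carried the same pair of leukemia drivers. The KO-labelled cells came from Tet2-/- mice without exons 8 to 10 of Tet2, which encodes an enzyme that oxidises 5-methylcytosine, and the WT-labelled cells came from wild-type mice. The labels give no treatment, and they do not say how many mice or cultures stand behind the libraries, so every p-value covers only how far these libraries scatter, and that scatter may be technical. Tet2 transcript was 53.5 and 52.8 TPM in the KO-labelled libraries, against 35.05 and 39.95 TPM in the WT-labelled libraries. A value for the whole gene cannot check a deletion of 3 exons, so the groups are called by their labels throughout.

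DNA repair works through several pathways that share parts. ATM and ATR are kinases that sense breaks and stalled replication forks and signal to the repair machinery. Mismatch repair corrects replication errors, the Fanconi anemia pathway unhooks DNA crosslinks, recombination and end joining mend double-strand breaks, base excision repair replaces single damaged bases, and nucleotide excision repair removes bulky lesions. Blood stem cells depend on these pathways, and inherited loss of Fanconi genes is known for bone marrow failure and leukemia.

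Differences between the groups were small in these genes, since none was fitted at 1.5-fold or more and 8 passed the test. Expression was read as TPM (transcripts per 1000000, a length-corrected share of all transcripts), and changes are KO minus WT differences of log2(TPM + 1), which understate the change of low genes. A gene was kept when it had at least 1 TPM in at least 2 libraries, which 52 of the 54 did. The other 2, the meiotic MutS homolog Msh4 and Rad51ap2, stayed at or below 0.07 TPM in every library. In the limma fit over all 11837 kept genes, with p-values adjusted over all of them by the Benjamini-Hochberg method and calls at an adjusted p under 0.05, 8 of the 52 repair genes were called, or 15.4%, beside 30.5% of all kept genes. Of these, 6 were higher in the KO-labelled libraries (11.5%, beside 18.9% of all kept genes) and 2 were lower (3.85%, beside 11.6%). Among the called genes, Atr, Atm, Rad51b, Msh6 and Fancd2 rose, and Fanca and Lig1 fell. The median change of the 52 was 0.088 on the log2 scale, beside 0.041 over all kept genes, and 65.4% were above 0, beside 58.8% of all kept genes. The median absolute change was 0.123, beside 0.135 over all kept genes. Median level was lower in the repair genes (13.7 TPM, beside 22.1 TPM) and median SE larger (0.0638, beside 0.0589). The part of level and SE in the lower called share was not tested.

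The maturing granulocyte markers moved with the groups. All 12 listed markers fell in the KO-labelled libraries, and they held 2.37% and 2.41% of the TPM there, against 4.73% and 4.67% in the WT-labelled libraries. The 8 monocyte and macrophage markers summed to 812.7 and 798.7 TPM in KO-labelled and 1097 and 1123 TPM in WT-labelled libraries, with 2 called higher and 4 lower. Adgre1, the most abundant of them in KO-labelled libraries, rose (385.3 and 378.6 TPM, against 330.2 and 328.2 TPM in WT-labelled libraries, adjusted p = 0.0061), and Mrc1 fell most (50.05 and 47.6 TPM, against 210.6 and 208.2 TPM in WT-labelled libraries, adjusted p = 1.6e-05). In bulk RNA, fewer cells of a type and less RNA per cell cannot be told apart, and the part of these markers in the repair gene values was not tested. The calls moved with the scaling. With trimmed-mean (TMM) scaling 2 repair genes were higher and 3 lower, with scaling to the ERCC spike-ins 1 was higher and 3 lower, and after correcting for transcript GC and length 4 were higher and 4 lower, while the calls over all genes were 48.4%, 29.9% and 52.6% higher ones, beside 62.0% as deposited. Spike-in scaling lowered the median of all kept genes to -0.068 and that of the repair genes to -0.02. The repair median stayed 0.035 to 0.048 above that of all kept genes under these 3 scalings, beside 0.047 as deposited.

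**Figure D1:**
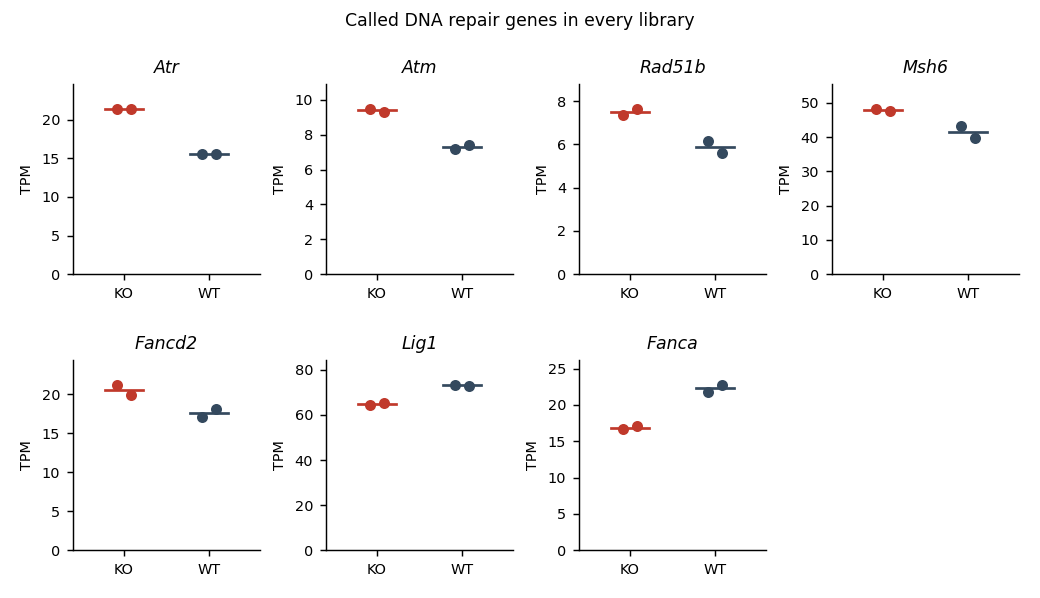
TPM (linear axis from 0) of 7 called repair genes in each library, with KO-labelled libraries in red on the left and WT-labelled libraries in dark blue-grey on the right; points are libraries and bars are means of 2. Atr, Atm, Rad51b, Msh6 and Fancd2 have both KO points above both WT points, and Lig1 and Fanca have them below.

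The damage-signalling kinases showed the largest rise. Atr, the kinase recruited to single-stranded DNA at stalled forks, had 21.5 and 21.4 TPM in the KO-labelled libraries, against 15.6 and 15.5 TPM in the WT-labelled libraries. The groups were far apart beside the spread within each, and the log2 change was 0.44 (SE 0.047, limma adjusted p = 0.0027). Atr was the only repair gene called under every one of the 15 alternative settings, with adjusted p from 9e-04 to 0.042. Its transcripts average 37.3% GC, lower than in all but 0.468% of kept genes, and the 25% of kept genes with the lowest GC had a median change of 0.10, beside 0.00 in the 25% with the highest. After removing the trend with GC content and length the change of Atr was 0.27 (adjusted p = 0.018). Atr lies on chromosome 9 from 95857597 to 95951781, plus strand (GRCm38). It shares 726 exonic bases with 1700065D16Rik on the opposite strand, which was at or below 0.41 TPM in every library. It also shares 462 with Gm16794 on that strand and 178 with Gm24004 on its own, for which no level was available.

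Atm, the kinase activated by double-strand breaks, had 9.50 and 9.30 TPM in the KO-labelled libraries, against 7.19 and 7.40 TPM in the WT-labelled libraries. Both KO values lay above both WT values, with a log2 change of 0.33 (SE 0.063, adjusted p = 0.016; chromosome 9, 53439149 to 53536740, minus strand). This call was lost without KO replicate 1, KO replicate 2 or WT replicate 1 (adjusted p = 0.10, 0.088 and 0.067). It was also lost under spike-in scaling, where the change was 0.22, and after removing the GC and length trend, where it was 0.19. Over all alternatives the adjusted p ran from 0.011 to 0.12. Within a library Atr stood 2.26 and 2.30 times above Atm in the KO-labelled group and 2.17 and 2.10 times above it in the WT-labelled group. Atrip, the partner that carries ATR to damaged DNA, had 12.3 and 13.2 TPM in KO-labelled and 11.2 and 11.1 TPM in WT-labelled libraries and was not called (0.18, adjusted p = 0.076).

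The 5 mismatch repair genes were all fitted above 0, as were 58.8% of all kept genes. Of the 5, 2 were called higher, beside 18.9% of all kept genes. Over the alternatives the change of Msh3 went down to -0.02 and that of Mlh3 to -0.10. Msh6, a subunit of the sensor of single mismatches, had 48.3 and 47.7 TPM in the KO-labelled libraries, against 43.3 and 39.8 TPM in the WT-labelled libraries. The groups did not overlap, and WT replicate 2 was the lowest library. Msh6 changed by 0.21 (SE 0.052, adjusted p = 0.035; chromosome 17, 87975062 to 87990892, plus strand).

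The call of Msh6 was lost with TMM scaling (change 0.16) and spike-in scaling (change 0.09), and it held after removing the GC and length trend (0.20, adjusted p = 0.046). It was also lost with no filter, without a variance trend and without KO replicate 1, KO replicate 2 or WT replicate 2 (adjusted p = 0.18, 0.15 and 0.077, within 0.023 to 0.54 over the alternatives). Msh3, which recognises larger loops, had 9.84 and 9.29 TPM in KO-labelled and 8.84 and 9.09 TPM in WT-labelled libraries (0.08, adjusted p = 0.37). The MutL gene Mlh3 was not called (0.04, adjusted p = 0.78). Msh5, which acts in meiosis, was at 3.65 and 3.62 TPM in KO-labelled and 2.85 and 3.23 TPM in WT-labelled libraries and was not called (0.20, adjusted p = 0.18).

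Fanconi genes went both ways, with 1 of 10 called higher and 1 lower, beside 18.9% and 11.6% of all kept genes. Fanca, a large subunit of the core ubiquitin ligase complex, had 16.69 and 17.04 TPM in the KO-labelled libraries, against 21.9 and 22.8 TPM in the WT-labelled libraries. Both KO values lay below both WT values, and the log2 change of -0.38 (SE 0.050, adjusted p = 0.0048) was the largest fall of the 52 genes. The call held under 14 of the 15 alternatives, with changes from -0.50 to -0.32, and was lost without KO replicate 1 (adjusted p = 0.056, the highest of 0.0018 to 0.056). Fanca (chromosome 8, 123268300 to 123318576, minus strand) shares 920 exonic bases with Zfp276 on the opposite strand, which was at 10.4 and 11.2 TPM in KO-labelled and 12.8 and 12.5 TPM in WT-labelled libraries. The kit was stranded, but whether the counting used strand is not given in the sources used here, so the value of Fanca is uncertain to that extent.

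Fancd2, the subunit that the core complex ubiquitinates at crosslinks, went the other way, with 21.24 and 19.97 TPM in the KO-labelled libraries, against 17.1 and 18.2 TPM in the WT-labelled libraries. Its groups did not overlap (0.21, SE 0.059, adjusted p = 0.044; chromosome 6, 113531682 to 113597017, plus strand), but the call held in 5 of 15 alternatives. It was lost with a replicate block (adjusted p = 0.071), with TMM scaling (change 0.17), with spike-in scaling (change 0.10), after removing the GC and length trend (change 0.15), with no filter, without a variance trend, and when any single library was left out (adjusted p from 0.061 to 0.22, within 0.031 to 0.38 over the alternatives). Fanci, its partner in the ID2 complex, was not called at 11.84 and 13.01 TPM in KO-labelled and 10.7 and 11.6 TPM in WT-labelled libraries (0.14, adjusted p = 0.20). Fancd2os, an unrelated gene on the strand opposite Fancd2 that shares 257 exonic bases with it, had 2.32 and 1.88 TPM in KO-labelled and 2.34 and 2.88 TPM in WT-labelled libraries (-0.22, adjusted p = 0.27).

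The other 7 Fanconi genes were not called. Fancg, the core subunit with the highest mean over the 4 libraries, though below Fanca in both WT-labelled ones, was between 19.9 and 20.5 TPM in all 4 libraries (-0.02, 95% interval -0.13 to 0.10). Fancc, another core subunit, was higher in both KO-labelled libraries (4.16 and 4.31 TPM, against 3.20 and 3.38 TPM in WT-labelled ones) and missed the threshold (0.29, adjusted p = 0.058), although it passed without a variance trend. Fancf, an adaptor of the core, was lower in both (5.36 and 6.30 TPM, against 6.62 and 7.91 TPM in WT-labelled libraries; -0.27, adjusted p = 0.12) and passed with spike-in scaling. Fancb, Fance, Fancl and Fancm had changes from 0.11 to 0.19. The TPM of the 10 Fanconi genes summed to 122.5 and 124.6 in KO-labelled and 118.3 and 122.6 in WT-labelled libraries, a smaller gap than between the WT-labelled libraries themselves.

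**Figure D2:**
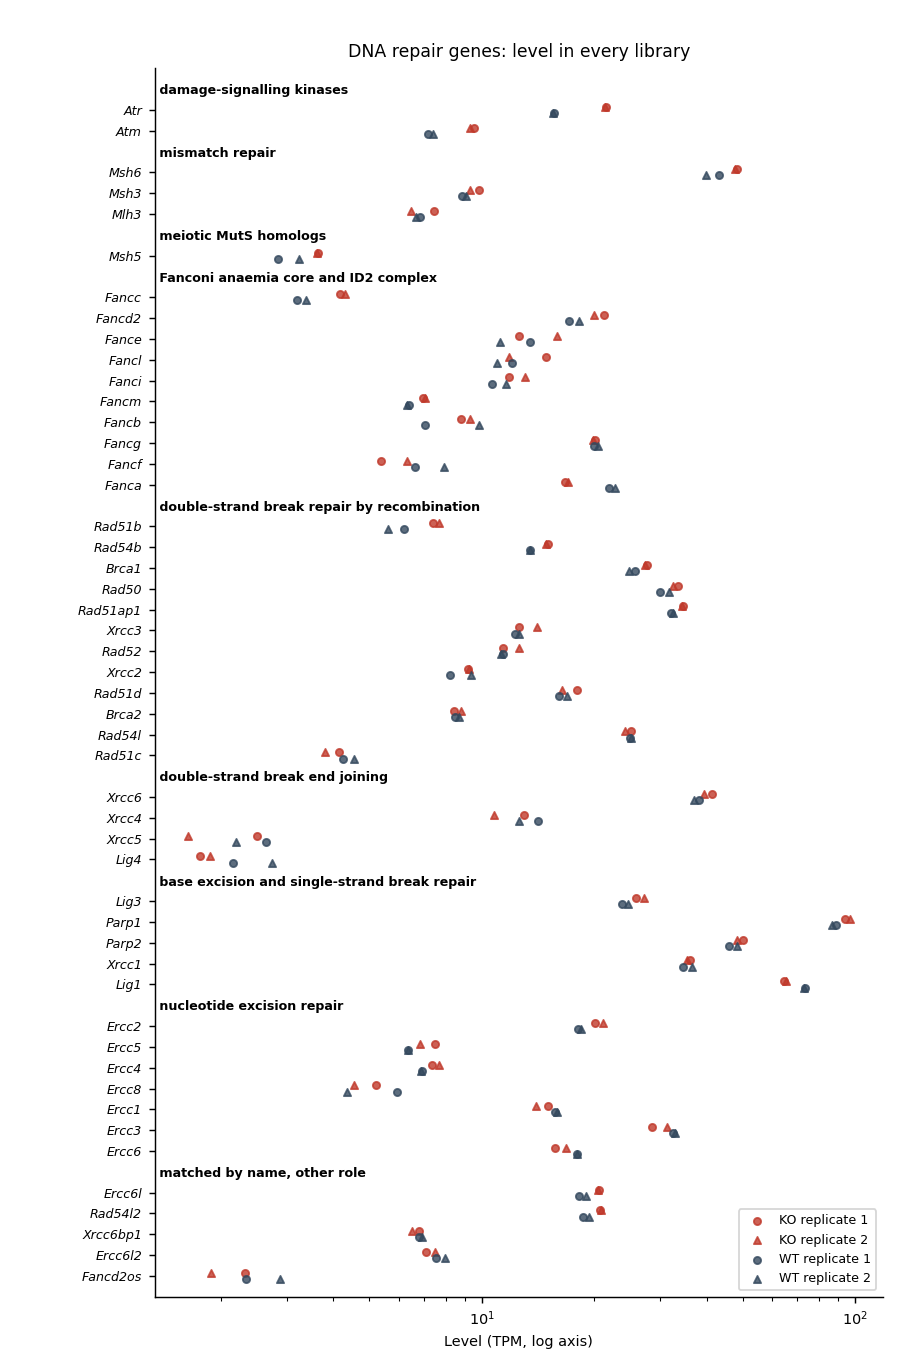
Level of 49 kept repair genes in every library, in TPM on a log axis, grouped by role; red marks KO-labelled and dark blue-grey WT-labelled libraries, circles replicate 1 and triangles replicate 2. Parp1 is the highest gene in all 4 libraries, while Fancd2os, Xrcc5 and Lig4 lie below 3 TPM in every library.

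Of the 13 kept recombination genes, 1 was called, Rad51b, beside 30.5% of all kept genes. Rad51b, which acts in recombination, had 7.38 and 7.66 TPM in the KO-labelled libraries, against 6.17 and 5.62 TPM in the WT-labelled libraries. The groups did not overlap (0.31, SE 0.077, adjusted p = 0.034; chromosome 12, 79297282 to 79814690, plus strand). The call was lost with a replicate block (adjusted p = 0.057), with TMM scaling (change 0.27), with spike-in scaling (change 0.20), after removing the GC and length trend (change 0.25), with no filter, and when any single library was left out (adjusted p from 0.060 to 0.16, within 0.025 to 0.23 over the alternatives).

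Brca1 was slightly higher in both KO-labelled libraries (27.7 and 27.3 TPM, against 25.7 and 24.7 TPM in WT-labelled ones; 0.12, adjusted p = 0.10). Brca2, a mediator of recombination, was at 8.40 and 8.78 TPM in KO-labelled and 8.49 and 8.69 TPM in WT-labelled libraries, with a change of 0.00 and a 95% interval of -0.16 to 0.16. The genes Rad51c, Rad51d, Xrcc2 and Xrcc3 had changes from -0.12 to 0.09, and Rad52, Rad54l, Rad54b, Rad50 and Rad51ap1 from -0.02 to 0.14. Rad54b shares 2068 exonic bases on the same strand with Fsbp, so reads may have been divided between them.

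None of the 4 end joining genes was called, beside 30.5% of all kept genes. Xrcc6, which encodes Ku70, had 41.4 and 39.3 TPM in KO-labelled and 38.1 and 36.9 TPM in WT-labelled libraries (0.10, adjusted p = 0.15, and -0.01 with spike-in scaling). Xrcc5, which encodes its obligate partner Ku80, was listed at only 2.50 and 1.63 TPM in KO-labelled and 2.64 and 2.19 TPM in WT-labelled libraries (-0.17, adjusted p = 0.50), so Xrcc6 stood 16.6 and 24.1 times above it in KO-labelled and 14.4 and 16.9 times in WT-labelled libraries. The annotation behind these values is not given in the sources used here, and whether the low value of Xrcc5 reflects its transcript or its estimation was not tested. Lig4, the ligase of this pathway, had 1.76 and 1.87 TPM in KO-labelled and 2.16 and 2.74 TPM in WT-labelled libraries (-0.29, adjusted p = 0.15), and was called, among the 15 alternatives, only after removing the GC and length trend. Its scaffold Xrcc4 had overlapping groups (-0.16, adjusted p = 0.29).

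In base excision and single-strand break repair, the replicative ligase fell. Lig1, which joins Okazaki fragments and long repair patches, had 64.3 and 65.3 TPM in the KO-labelled libraries, against 73.5 and 72.8 TPM in the WT-labelled libraries. The difference was small but wider than the spread within either group (-0.17, SE 0.035, adjusted p = 0.018; chromosome 7, 13277283 to 13311433, plus strand). It kept its call under all 3 rescalings, with changes from -0.29 to -0.18, and lost it without a variance trend and without KO replicate 1, KO replicate 2 or WT replicate 1 (adjusted p = 0.14, 0.11 and 0.058, within 0.0096 to 0.14). Lig3, the ligase that works with XRCC1 and in mitochondria, was higher in both KO-labelled libraries (25.9 and 27.2 TPM, against 23.8 and 24.7 TPM in WT-labelled ones) and not called (0.13, adjusted p = 0.11). The ratio of Lig1 to Lig3 was therefore 2.48 and 2.40 in KO-labelled libraries and 3.09 and 2.95 in WT-labelled libraries. Lig3 shares 1826 exonic bases with Rffl on the opposite strand, so its value has the same uncertainty about strand as that of Fanca. Rffl was at 29.57 and 29.56 TPM in KO-labelled and 29.86 and 31.61 TPM in WT-labelled libraries.

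Parp1, which senses strand breaks and builds poly(ADP-ribose), was the most abundant repair gene in every library, at 94.2 and 96.6 TPM in KO-labelled and 88.8 and 86.9 TPM in WT-labelled libraries. It missed the threshold (0.12, adjusted p = 0.057) and passed it after removing the GC and length trend (0.13, adjusted p = 0.045), while its change was 0.00 with spike-in scaling. Parp2 (0.06, adjusted p = 0.34) and the scaffold Xrcc1 (0.01, adjusted p = 0.88) were not called.

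The 7 nucleotide excision repair genes gave no call in either direction, beside 30.5% of all kept genes. Ercc2, which encodes the XPD helicase of TFIIH, came nearest, with 20.2 and 21.1 TPM in KO-labelled and 18.1 and 18.4 TPM in WT-labelled libraries (0.17, adjusted p = 0.058). It passed with a filter at 5 TPM and after removing the GC and length trend. Ercc3, the XPB helicase and the highest gene of the class, had 28.6 and 31.3 TPM in KO-labelled and 32.5 and 32.9 TPM in WT-labelled libraries (-0.12, adjusted p = 0.15). The fitted values of these helicases of the same complex thus had opposite signs, a difference that was not tested. Ercc6, the transcription-coupled repair ATPase known as CSB, had 15.7 and 16.8 TPM in KO-labelled and 18.0 and 18.0 TPM in WT-labelled libraries (-0.14, adjusted p = 0.11). It was called with TMM scaling and after removing the GC and length trend. Ercc1 (-0.12) and Ercc4 (0.11), which form the XPF nuclease, Ercc5 (0.15) and Ercc8 (-0.06) were not called.

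Of the 5 genes that matched by symbol and were not placed in a repair class above, none was called, beside 30.5% of all kept genes. Rad54l2 had 20.8 and 20.9 TPM in KO-labelled and 18.7 and 19.3 TPM in WT-labelled libraries (0.12, adjusted p = 0.11). Ercc6l, which encodes a mitotic helicase, had a fitted change of 0.13 (adjusted p = 0.093), and Ercc6l2 and Xrcc6bp1 had -0.08 and -0.04.

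**Figure D3:**
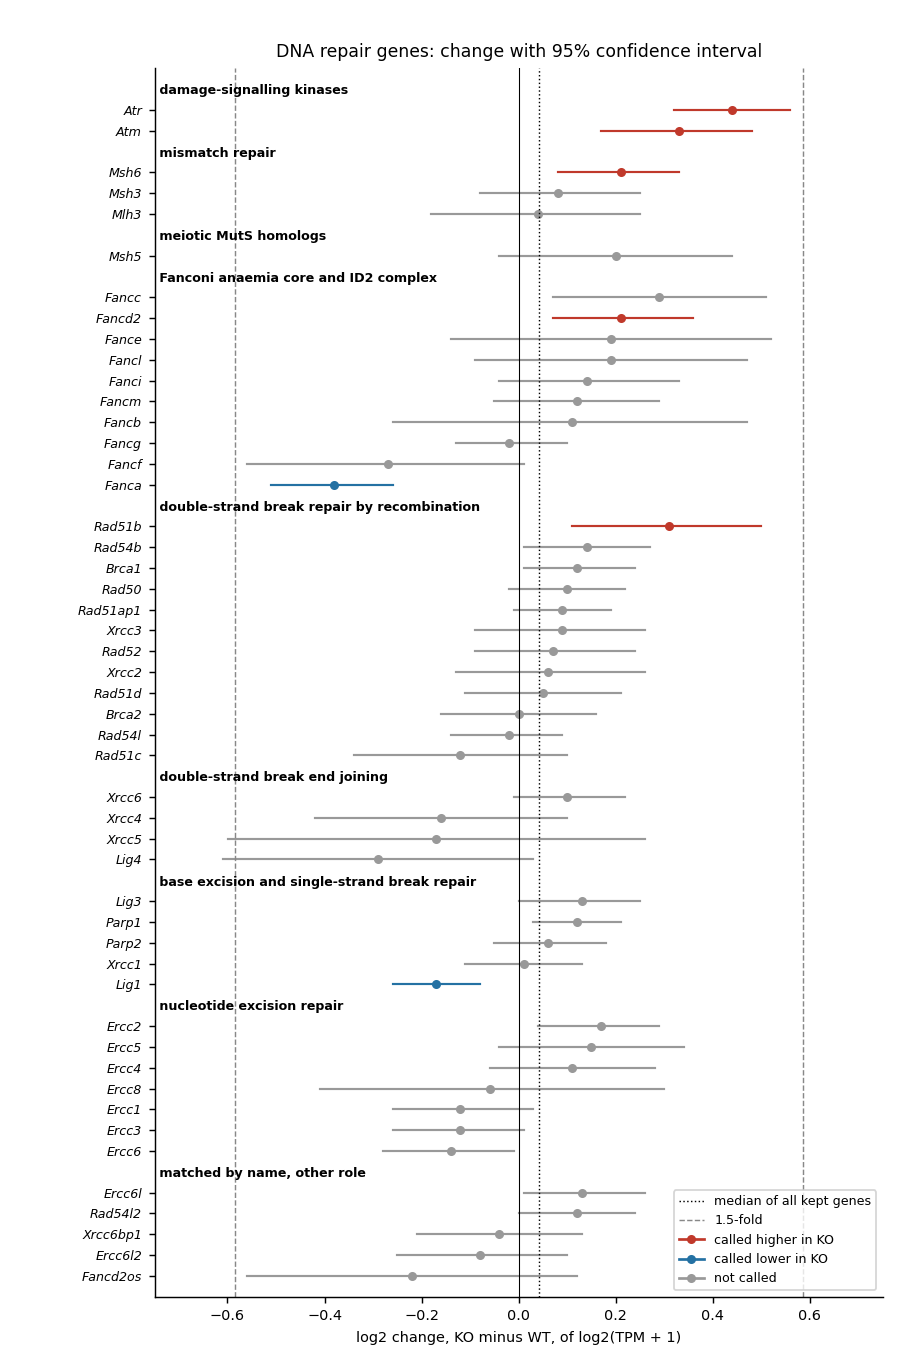
Log2 change, KO minus WT, of 49 kept repair genes with its 95% confidence interval from limma; red marks genes called higher, blue genes called lower and grey genes not called, the dotted line is the median of all kept genes and dashed lines mark 1.5-fold. All points lie between -0.38 (Fanca) and 0.44 (Atr).

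Across the 52 genes the groups did not overlap in 36 cases, 25 of them higher and 11 lower in the KO-labelled libraries, or 69.2%, beside 68.6% of all kept genes (42.2% higher and 26.5% lower). A change of 1.5-fold or more was fitted for 0 of the 52 repair genes and for 6.81% of all kept genes (6.12% with a call as well), and no repair gene reached it under any of the 15 alternatives. The 95% intervals of 50 repair genes lay wholly within 1.5-fold (96.2%, beside 83.7% of all kept genes), the exceptions being Xrcc5 and Lig4. Of the 44 genes not called, 38 were called under none of the alternatives. At an unadjusted p under 0.05 there were 17 of 52, beside 43.2% of all kept genes. The repair genes together held 0.103% of the TPM in each KO-labelled library and 0.099% in each WT-labelled library.

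The promoters of 43 of the 54 genes were found in the RefSeq table (GRCm38.p6), which gives 250 bases before and 50 after each gene's start, and the first listed start of each gene was read. Both strands were searched for the GC box (GGGCGG), the CCAAT box (CCAAT), E2F sites (TTTGGCGC, TTTCCCGC or TTTCGCGC), NRF1, ETS (CCGGAAGT) and RUNX (TGTGGT), and no 2 different motifs shared bases in the 43 promoters. E2F letters were found in 7 of the 43 repair promoters (16.3%), those of Brca2, Fancg, Msh3, Msh5, Msh6, Rad51c and Xrcc6, beside 3.85% of the promoters of kept genes and 1.91% of all 27025 promoters. The GC box was in 62.8% of repair promoters and the CCAAT box in 51.2%, beside 64.3% and 39.3% for kept genes and 35.9% and 37.9% of all. RUNX letters were in 18.6%, ETS letters in 4.65% and NRF1 letters in 4.65%, beside 13%, 8.9% and 2.17% for kept genes and 16.9%, 4.0% and 0.977% of all. Of the 7 genes with E2F letters, Msh6 was called. The median repair promoter held 23 CpG dinucleotides, beside 21 for kept genes and 7 for all.

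Promoters of called genes that moved in each direction are printed to show these letters, on the gene's own strand, with every motif match in capitals. Atr (chr9:95857347-95857646, plus strand) holds 2 GC boxes and 22 CpG, Atm (chr9:53536622-53536921, minus strand) a GC box, a CCAAT box and 28 CpG, and Msh6 (chr17:87974800-87975099, plus strand) an E2F match, 5 GC boxes, some sharing bases, a CCAAT box and 37 CpG. Fanca (chr8:123318527-123318826, minus strand), which fell, holds a GC box, a RUNX match, 2 CCAAT boxes and 19 CpG.
Atr: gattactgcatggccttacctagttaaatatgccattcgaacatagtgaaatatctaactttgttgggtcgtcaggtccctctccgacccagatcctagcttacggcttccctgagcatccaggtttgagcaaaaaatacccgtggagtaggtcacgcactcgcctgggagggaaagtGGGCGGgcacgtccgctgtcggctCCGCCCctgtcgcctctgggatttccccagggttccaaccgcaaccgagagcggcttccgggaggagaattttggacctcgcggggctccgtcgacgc
Atm: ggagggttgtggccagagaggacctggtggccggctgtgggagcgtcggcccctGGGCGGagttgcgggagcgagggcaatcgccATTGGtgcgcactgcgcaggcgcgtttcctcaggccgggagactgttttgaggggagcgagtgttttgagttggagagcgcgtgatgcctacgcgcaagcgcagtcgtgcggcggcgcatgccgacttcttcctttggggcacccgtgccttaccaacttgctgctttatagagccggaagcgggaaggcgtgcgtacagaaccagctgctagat
Msh6: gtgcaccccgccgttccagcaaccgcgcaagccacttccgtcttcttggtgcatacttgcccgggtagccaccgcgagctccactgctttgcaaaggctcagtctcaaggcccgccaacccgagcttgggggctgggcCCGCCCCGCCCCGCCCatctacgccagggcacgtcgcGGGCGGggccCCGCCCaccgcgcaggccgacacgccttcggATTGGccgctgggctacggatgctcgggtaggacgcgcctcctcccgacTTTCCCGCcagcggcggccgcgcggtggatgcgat
Fanca: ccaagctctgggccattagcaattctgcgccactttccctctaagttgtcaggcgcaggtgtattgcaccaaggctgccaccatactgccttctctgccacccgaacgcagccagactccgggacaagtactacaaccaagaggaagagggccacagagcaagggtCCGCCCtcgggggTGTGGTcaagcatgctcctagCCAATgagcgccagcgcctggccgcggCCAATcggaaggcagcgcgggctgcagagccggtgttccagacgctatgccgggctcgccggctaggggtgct
Atr and Fanca have fewer CpG than the median repair promoter and Atm and Msh6 more. GC boxes occur in Atr, Atm and Msh6, which rose, as well as in Fanca. The promoter of Rad51b, which also rose, holds no GC box and 10 CpG. That of Lig1, which fell, holds no match to any of these motifs and 5 CpG. The matches describe letters only, and the files hold no measure of methylation or binding at them.

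The partner genes of these pathways were called in both directions. Of 109 partner genes in 8 lists, 103 were kept, with a median change of 0.06, beside 0.041 over all kept genes. Of the 103, 17 were higher, 5 were lower and 81 were not called. In all 21.4% were called, beside 30.5% of all kept genes (18.9% higher and 11.6% lower). The split of 17 and 5 was 12 and 6 with TMM scaling, 12 and 10 after removing the GC and length trend, and 1 and 6 with spike-in scaling, and it was 1 and 2 without KO replicate 1, 0 and 1 without KO replicate 2, 7 and 2 without WT replicate 1, and 11 and 3 without WT replicate 2. Of the partners named here for their small p-values, Poli lost its call without KO replicate 2. The others lost it when either KO replicate was left out and, apart from Polm, under spike-in scaling. Rbbp8, Wrn and Mnat1 also lost it after removing the GC and length trend, Rad23b with TMM scaling, and Tdp1 and Rad23b with no filter and without a variance trend. Leaving out WT replicate 1 ended the calls of Rbbp8, Wrn, Tdp1, Rad23b and Mnat1, and leaving out WT replicate 2 that of Mnat1. Among 19 damage-signalling genes 3 were higher, including the histone variant H2afx, with 194.5 and 203.9 TPM in KO-labelled and 158.5 and 171.2 TPM in WT-labelled libraries (0.27, adjusted p = 0.013). Of 21 recombination partners 3 were higher and 1 lower, among them the end-resection factor Rbbp8 (0.26, adjusted p = 0.020) and the helicase Wrn (0.24, adjusted p = 0.018). Of 10 kept Fanconi partners 2 were higher. These were Ube2t, the conjugating enzyme for FANCD2 (37.8 and 36.9 TPM in KO-labelled, against 30.1 and 30.4 TPM in WT-labelled libraries; 0.29, adjusted p = 0.0060), and Brip1 (0.19, adjusted p = 0.049). The Brip1 call held in 5 of 15 alternatives and was also lost with a replicate block, the crossed block, TMM scaling, the GC and length trend removed, no filter, and each library left out.

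End joining partners had no higher call and 3 lower ones among 8 kept genes. The called share was 37.5%, beside 30.5% of all kept genes called in either direction and 11.6% called lower. Polm, a gap-filling polymerase, had 5.92 and 5.67 TPM in KO-labelled and 7.68 and 7.75 TPM in WT-labelled libraries (-0.36, adjusted p = 0.016), a call lost when any single library was left out. Nhej1, named after its value was seen, had 7.75 and 5.97 TPM in KO-labelled and 10.2 and 9.23 TPM in WT-labelled libraries (-0.45, adjusted p = 0.043). The Nhej1 call held in 10 of 15 alternatives. It was lost with no filter, without a variance trend, and without KO replicate 2, WT replicate 1 or WT replicate 2. Prkdc, the kinase of the pathway, was at 9.70 and 9.36 TPM in KO-labelled and 9.11 and 8.85 TPM in WT-labelled libraries (0.08, adjusted p = 0.39), and is also named after its value was seen.

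Translesion synthesis and damage reversal genes had 4 higher and 1 lower call among 10, or 50.0% called, beside 30.5% of all kept genes. The lesion-bypass polymerase Poli had 27.8 and 30.0 TPM in KO-labelled and 21.1 and 22.1 TPM in WT-labelled libraries (0.40, adjusted p = 0.0063, lost without KO replicate 2), and Polk, another bypass polymerase, changed by 0.29 (adjusted p = 0.0096). The gene with the largest change in the list was Mgmt, which removes alkyl groups from guanine and is named after its value was seen. It had 5.27 and 4.79 TPM in KO-labelled and 3.48 and 2.74 TPM in WT-labelled libraries (0.56, adjusted p = 0.021). The Mgmt call held in 9 of the 14 alternatives that kept the gene. It was lost with spike-in scaling, with no filter, and without KO replicate 1, KO replicate 2 or WT replicate 2. Base excision partners had 1 higher call of 17, Tdp1 (0.22, adjusted p = 0.028). Nucleotide excision partners had 4 of 16, among them Mnat1 (0.27, adjusted p = 0.016) and Rad23b (0.16, adjusted p = 0.034), and the mismatch partners Pms1 and Pms2 were not called.

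Cell cycle genes, which share timing with many repair genes, were summed beside these results. The 24 S phase genes summed to 1988 and 1986 TPM in KO-labelled and 2013 and 2008 TPM in WT-labelled libraries. Of the 24, 2 were called higher and 4 lower, a smaller share than the 30.5% called among all kept genes. The 18 genes of G2 and M phase summed to 2298 and 2321 TPM in KO-labelled and 2176 and 2192 TPM in WT-labelled libraries. Of the 18, 7 were called higher and 0 lower, or 38.9% called, beside 18.9% of all kept genes higher and 11.6% lower. In both cell cycle lists together 31.0% were called, beside 30.5% of all kept genes. Without KO replicate 1 or KO replicate 2 none of either list was called, and with spike-in scaling the G2 and M phase median was -0.02, beside 0.10 as deposited. Their part in the repair gene changes was not tested. Progenitor markers were present in every library (Mpo at 989.8 and 1037 TPM in KO-labelled and 730.7 and 757.5 TPM in WT-labelled libraries) and summed to 1973 and 2021 TPM over 8 genes in KO-labelled and 1615 and 1683 TPM in WT-labelled libraries. Of these 8 markers 5 were called higher and 1 lower, Spi1 (-0.26, adjusted p = 0.0041), and Runx1 had a fitted change of 0.01. All 8 T and B cell markers stayed below 1 TPM with Cd3e and Ms4a1 at 0, and 6 of 8 erythroid and 6 of 8 stromal markers were below 1 TPM in all libraries. Of the others, Hbb-bt, a beta globin, had 201.8 and 215.5 TPM in KO-labelled and 136.3 and 129.1 TPM in WT-labelled libraries (0.65, adjusted p = 0.00087), and Hba-a1 was not called. Pecam1, which leukocytes also express, had 333.1 and 332.6 TPM in KO-labelled and 417.1 and 428.6 TPM in WT-labelled libraries (-0.34, adjusted p = 0.0017), and Pdgfrb had 8.65 and 8.72 TPM in KO-labelled and 5.92 and 5.93 TPM in WT-labelled libraries (0.48, adjusted p = 0.0054, lost without KO replicate 1 or KO replicate 2). The part of these markers in the repair gene values was not tested. Spike-ins took 3.41% and 3.39% of the TPM in KO-labelled and 2.98% and 3.30% in WT-labelled libraries. The 45S pre-ribosomal RNA was at 14263 and 8813 TPM in KO-labelled and 5704 and 4350 TPM in WT-labelled libraries, and its part in the repair gene values was not tested either.

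**Figure D4:**
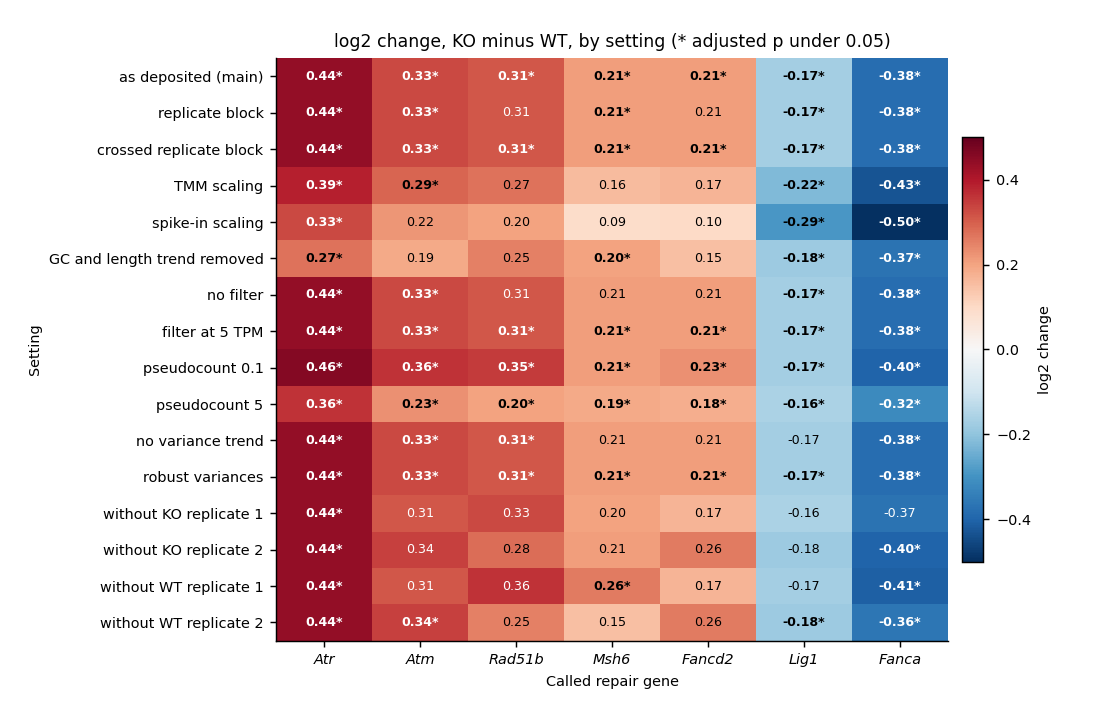
Log2 change, KO minus WT, of 7 called repair genes (columns) as deposited and under 15 alternative settings (rows), coloured from blue (lower in KO) to red (higher in KO); an asterisk marks an adjusted p under 0.05. Atr carries an asterisk in every row, Fanca in all but the row without KO replicate 1, and no gene changes sign.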

How the data were processed

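RNA was measured in 4 libraries made with a stranded mRNA kit, per the labels' protocols. The authors deposited a table of TPM for 24589 rows, each column summing to 1000000, and STAR, RSEM and mm10 were used, per the submitters' processing notes. Versions, annotation and strand setting are not given in the sources used here. TPM keep no read depth, so depth is unknown and no counting interval is given, and their precision is that of 2 libraries per group. The 92 spike-in rows were left out of tests.

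Genes that reached 1 TPM in 2 or more libraries were compared on log2(TPM + 1), pseudocount 1, with limma 3.58.1 in R 4.3.3 (variance trend, no replicate block, two-sided, Benjamini-Hochberg over 11837 genes). The prior had 3.51 degrees of freedom. An exact permutation of 2 against 2 cannot go below p = 0.333. Simulated data for these 11837 genes had 200 shifted genes and normal noise set only by a smooth trend with level. There 67.6% of genes shifted by 0.3 and 100% of genes shifted by 1 were recovered, while 4.29% of calls were false. The simulation had far fewer changed genes than the 3606 called here and no spread of variance between genes of similar level. Its rates are therefore not estimates for these libraries.

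Although the rule for members reads symbols only, the members and lists were chosen with earlier results of these data known. Genes to be named were called members, the most abundant and the most changed member of each role, and at most 2 called genes with the smallest p per other list. Other genes are named outside this rule. They include members that were not called, and Nhej1, Prkdc, Mgmt, Atrip, Adgre1, Spi1, Runx1, Hba-a1, Pms1 and Pms2 among the lists. Some genes of the families and lists are counted but not reported here by name. GC content, length and positions came from GENCODE mouse release M21 (GRCm38), and 25 of the 54 members share exonic bases with another gene. GC content and length were found for 99.2% of kept genes. Alternatives were a replicate block, TMM and spike-in scaling, removal of the GC and length trend, 2 filters, 2 pseudocounts, 2 variance models and leaving out each library, and a crossed block was added after seeing the data.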

Additional observations from a re-analysis of the deposited data

How the results depend on the processing

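Of the 8 called repair genes, none changed sign under the 15 alternatives, and Atr kept its call in all of them. The count of higher repair genes was 6 as deposited, 2 with TMM scaling, 1 with spike-in scaling and 3 with no filter, and 1 to 3 when a library was left out. The count of lower ones was 2 as deposited, 4 after removing the GC and length trend, 1 without a variance trend, and 0 to 2 when a library was left out. The median change of the repair genes was 0.088, and -0.02 with spike-in scaling, where Xrcc6 also turned to -0.01. In all, 16 of the 52 repair genes, none of them called, changed sign under at least 1 alternative. Over all genes 3606 were called, 2108 with spike-in scaling and 1015 to 2905 with a library left out. The cause of these shifts was not tested. Leaving out a library leaves a lone sample that is assumed to vary like the other group, and fewer samples are fitted.

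Deviations of same-numbered libraries from their group means had a weak negative correlation (r = -0.114 across genes). With 2 libraries per group, this value cannot decide whether same-numbered libraries shared a culture or a preparation. The labels state no pairing. With a replicate block 4 repair genes were higher and 2 lower, and 3071 genes were called in all. With the crossed pairing, added after seeing the data, 6 were higher, 2 lower and 3463 called. Depth is unknown, so its share in the width of the intervals cannot be given.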
